A study of Rattus norvegicus with 9 samples.

Results

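The genes described here are 10 rat genes of the smooth muscle contractile programme and its transcription factors: Acta2, Myl9, Myh11, Tagln, Cnn1, Smtn, Lmod1, Des, Srf and Myocd. They were picked by symbol, by a rule that names no measured value, out of 18629 genes in the deposited table. Earlier results of these data were known when the 10 genes were chosen. All 10 passed the filter on low counts, which left 13708 genes to be tested, and each had at least 164 reads in every library.

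Messenger RNA came from primary cardiomyocytes isolated by enzymatic digestion of hearts of SD rats 1 to 2 days old. In the Yap1 WT group the cells received an adenovirus for Yap1 overexpression, in the Yap1 shRNA group an adenovirus carrying a hairpin against Yap1, and in the control group an adenovirus for GFP, with 3 libraries in each group. All 3 groups were plated for 18 to 20 h in 10% serum, held for 14 h in 1% serum with 1 g/L glucose, and then exposed to 33 mM glucose and 100 nM insulin over 48 h to mimic diabetes in vitro. The control virus carries GFP and no hairpin, so a response to a hairpin as such cannot be told apart from a response to lower Yap1. No library without the glucose and insulin treatment was analysed here. The labels do not say whether the libraries of a group came from separate cultures, and p-values measure only the spread between these libraries.

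SRF is a DNA-binding factor that recognises the CArG box, a short sequence flanked by CC and GG with an A/T-rich middle. It binds as a dimer and has little activity of its own. Myocardin, the product of Myocd, and its relatives MRTF-A and MRTF-B bind SRF and turn on the genes of the contractile apparatus, whereas ternary complex factors such as ELK1 compete for SRF and direct it to immediate early genes. Several genes of the smooth muscle programme are also active in the fetal and newborn heart, in activated fibroblasts and in pericytes, so their RNA in a culture of newborn heart cells can come from more than 1 cell type. YAP acts in the nucleus with TEAD factors, which bind the MCAT element CATTCC.

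RefSeq promoter windows were at hand for 5 of the 10 genes (Acta2, Cnn1, Smtn, Des and Srf). The 250 bases upstream of the start are shown for Acta2 and Srf because these are the windows among the 5 that hold CArG boxes. CArG boxes are in capitals, read 5′ to 3′ on the strand of the gene, in GRCr8.
Acta2 (chr1:241172504-241172753, minus strand): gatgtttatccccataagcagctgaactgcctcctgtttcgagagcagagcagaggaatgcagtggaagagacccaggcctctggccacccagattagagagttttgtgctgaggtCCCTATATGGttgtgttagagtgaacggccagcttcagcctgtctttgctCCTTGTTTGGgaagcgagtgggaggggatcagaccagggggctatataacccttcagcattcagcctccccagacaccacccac
Srf (chr9:21923826-21924075, plus strand): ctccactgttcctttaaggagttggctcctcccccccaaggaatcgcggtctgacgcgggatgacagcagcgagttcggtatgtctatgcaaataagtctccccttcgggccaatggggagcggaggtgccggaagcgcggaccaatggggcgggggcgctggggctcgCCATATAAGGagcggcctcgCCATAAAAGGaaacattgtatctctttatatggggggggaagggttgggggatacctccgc
Both boxes of Srf have only A and T in the middle 6 bases, at -81 to -72 and -61 to -52 from the start. The boxes of Acta2 each have 1 G or C among those 6 bases, and lie at -134 to -125 and -84 to -75. Acta2 alone of the 5 windows also holds the MCAT letters, as GGAATG at -196 to -191, which do not overlap either box. No CArG box of either form and no MCAT match was found in the windows of Cnn1, Smtn and Des. Of 33469 RefSeq promoter windows of this length, 1.5% hold a CArG box with only A and T in the middle, 6.84% hold the form with 1 G or C there, and 0.693% hold at least 2 boxes of either form. CATTCC or GGAATG occurs in 12.1% of them. A match describes letters in a window and was not tested for binding.

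**Figure D1:**
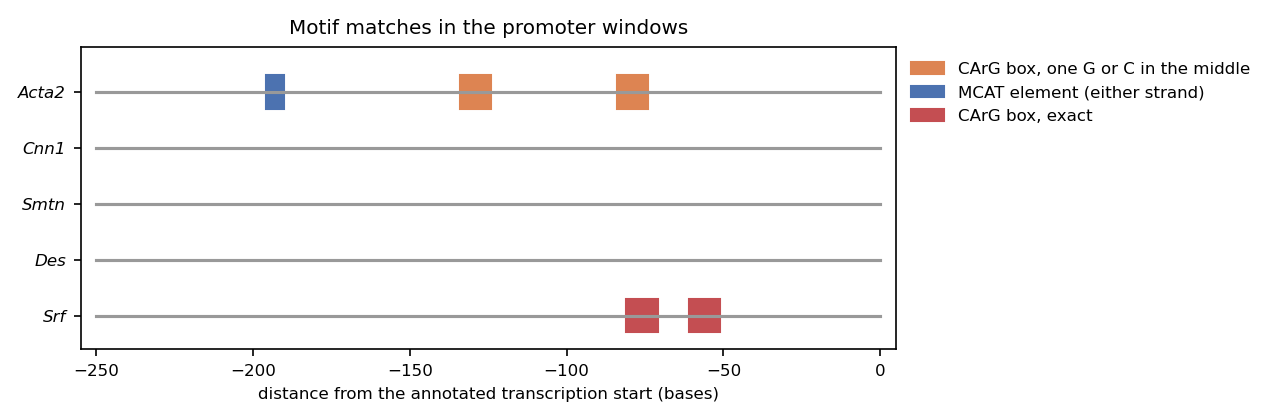
CArG boxes and MCAT elements found on either strand in the 250 bases upstream of the start of the 5 genes with a RefSeq promoter window, by distance from the start in bases. Acta2 and Srf hold 2 CArG boxes each, Acta2 also holds 1 MCAT element, and the other 3 windows hold none.

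The libraries held 10960046 to 11497108 assigned reads in the Yap1 WT group, 6103220 to 6357398 in the Yap1 shRNA group and 14868174 to 15368465 in the GFP group. Yap1 itself stood at 558.4, 810.9 and 621.4 CPM (the usual measure of a gene's share of the assigned reads, after TMM scaling for library composition) in Yap1 WT libraries, at 95.32, 95.9 and 95.24 CPM in Yap1 shRNA libraries and at 197.0, 197.4 and 189.7 CPM in GFP libraries, in the direction of each label. All 8 cardiomyocyte markers were detected in every library, but their summed level was 3806 to 5679 CPM with Yap1 WT and 1637 to 1774 CPM with Yap1 shRNA, against 20160 to 20560 CPM with GFP. Fibroblast markers summed to 12600 to 17030 CPM with Yap1 WT, 7873 to 8614 CPM with Yap1 shRNA and 18940 to 20170 CPM with GFP, so the cultures labelled cardiomyocytes carried abundant collagen RNA. These are bulk libraries, in which fewer cells of a type and less RNA per cell cannot be told apart.

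All 10 genes fell in both Yap1 groups. With Yap1 WT, each was lower than with GFP at an edgeR adjusted p under 0.05, and no Yap1 WT library reached the lowest GFP library for any of them. Of all genes tested, 31.8% were called lower in that comparison, and 35.4% had groups that did not overlap in that direction. With Yap1 shRNA, all 10 were again called lower and again did not overlap with GFP, against 39.1% of all genes called lower and 40.4% with no overlap. The median log2 fold change of the 10 genes was -0.89 with Yap1 WT and -1.09 with Yap1 shRNA, while that of all genes tested was 0.003 with Yap1 WT and -0.012 with Yap1 shRNA. A fall of at least 2-fold was seen for 4 of the 10 with Yap1 WT, against 7.39% of all genes, and for 6 of the 10 with Yap1 shRNA, against 16.6%. The comparisons share the GFP libraries, so their values are given side by side and were not tested against each other except directly, Yap1 WT against Yap1 shRNA.

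**Figure D2:**
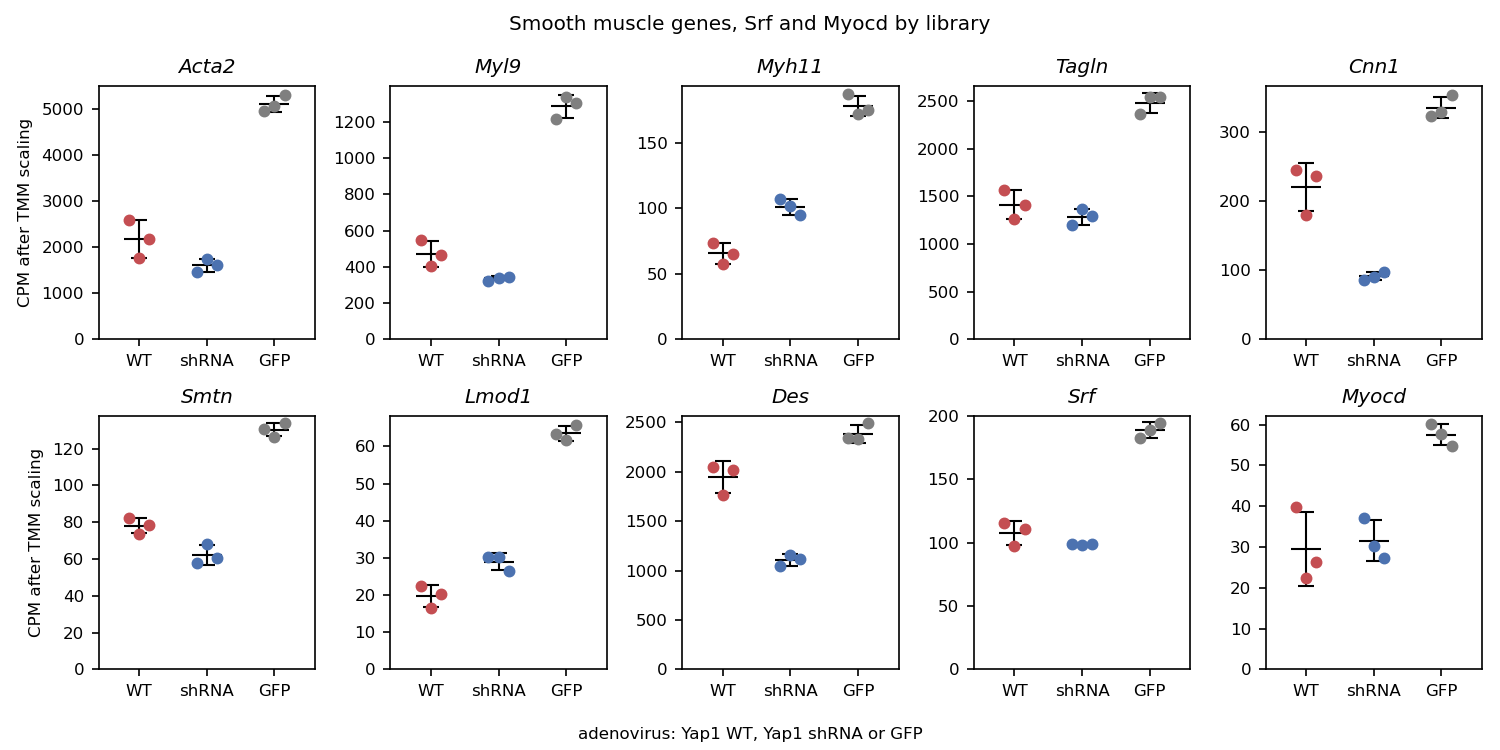
CPM after TMM scaling of the 10 genes in each library (points), with the mean and SD of 3 libraries (bars), for Yap1 WT, Yap1 shRNA and GFP. In every panel all GFP libraries lie above all libraries of both Yap1 groups, and Des comes closest, with a highest Yap1 WT library of 2051 CPM against a lowest GFP library of 2328 CPM.

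The first of the 10 to be described are the transcription factors. Srf (NCBI gene 501099, chromosome 9, 16737637 to 16748200, plus strand, rn6) had 115.3, 97.05 and 110.9 CPM in Yap1 WT libraries, 99.15, 98.6 and 99.26 CPM in Yap1 shRNA libraries, and 182.4, 189.4 and 194.9 CPM in GFP libraries. The Yap1 groups lay close together and well under GFP, and the Yap1 shRNA libraries were nearly equal to each other. Srf was 1.75-fold lower with Yap1 WT (log2 fold change -0.81, SE 0.06, edgeR adjusted p = 1.61e-07) and 1.91-fold lower with Yap1 shRNA (-0.93, SE 0.06, edgeR adjusted p = 2.18e-08).

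Myocd, the muscle-restricted coactivator of SRF (NCBI gene 246297, chromosome 10, 51680122 to 51781458, plus strand), had 39.69, 22.47 and 26.22 CPM with Yap1 WT, 37.2, 30.17 and 27.35 CPM with Yap1 shRNA, and 60.05, 57.68 and 54.87 CPM with GFP. It was the most variable of the 10 in both Yap1 groups, with a coefficient of variation of 30.7% with Yap1 WT and 16.1% with Yap1 shRNA, against 4.5% with GFP. Its level was 1.95-fold lower with Yap1 WT (log2 fold change -0.96, SE 0.16, edgeR adjusted p = 0.000146) and 1.82-fold lower with Yap1 shRNA (-0.86, SE 0.17, edgeR adjusted p = 0.000403). On the deposited TPM the value with Yap1 shRNA was smaller and lay on either side of the threshold. It was -0.4 on log2(TPM + 1), still called (limma adjusted p = 0.0472), and -0.44 on log2(TPM + 0.1), not called (limma adjusted p = 0.0514, in a range of 1.55e-06 to 0.0514 over all alternatives).

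Myocd also differed in the transcript length implied by the deposited values. The ratio of its count to its TPM, relative to the median of that ratio over 11672 genes of the same library, was 2.81, 2.51 and 2.87 with Yap1 WT, 2.49, 2.39 and 2.45 with Yap1 shRNA, and 2.81, 2.83 and 2.84 with GFP. All Yap1 shRNA libraries and 1 Yap1 WT library lay below the GFP libraries. The log2 difference from GFP was -0.05 with Yap1 WT and -0.211 with Yap1 shRNA, and 1.32% of the genes had a lower value in the Yap1 shRNA comparison. The file lists 7 transcripts of Myocd, and which of them took the reads cannot be read from a table of genes. For the other 9 genes this length differed from GFP by at most 0.012 on the log2 scale.

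Among the motor genes, Acta2 encodes smooth muscle alpha-actin (NCBI gene 81633, chromosome 1, 252537614 to 252550394, minus strand). It had 2580, 1759 and 2182 CPM in Yap1 WT libraries, 1462, 1743 and 1622 CPM in Yap1 shRNA libraries and 4942, 5065 and 5296 CPM in GFP libraries. The Yap1 shRNA libraries were the lowest, although the highest of them, at 1743 CPM, lay just under the lowest Yap1 WT library, at 1759 CPM. Acta2 was 2.35-fold lower with Yap1 WT (log2 fold change -1.23, SE 0.11, edgeR adjusted p = 7.82e-07) and 3.17-fold lower with Yap1 shRNA (-1.66, SE 0.11, edgeR adjusted p = 1.74e-08).

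Myl9, a regulatory light chain of smooth muscle and nonmuscle myosin (NCBI gene 296313, chromosome 3, 152857573 to 152863961, plus strand), had 547.7, 404.4 and 464.4 CPM with Yap1 WT, 323.3, 341.1 and 346.4 CPM with Yap1 shRNA, and 1215, 1334 and 1303 CPM with GFP. It took the same order as Acta2 and had the deepest fall of the 10 with Yap1 shRNA. The fall was 2.72-fold with Yap1 WT (log2 fold change -1.44, SE 0.09, edgeR adjusted p = 2.52e-08) and 3.81-fold with Yap1 shRNA (-1.93, SE 0.09, edgeR adjusted p = 6.04e-10).

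Myh11 encodes the smooth muscle myosin heavy chain, which is found mainly in mature smooth muscle (NCBI gene 24582, chromosome 10, 764421 to 859184, plus strand). It had 73.84, 57.41 and 65.42 CPM with Yap1 WT, 107.1, 101.5 and 94.92 CPM with Yap1 shRNA, and 186.7, 172.1 and 174.7 CPM with GFP. Here the order of the Yap1 groups was turned round, with every Yap1 WT library under every Yap1 shRNA library. Myh11 was 2.71-fold lower than GFP with Yap1 WT (log2 fold change -1.44, SE 0.08, edgeR adjusted p = 9.07e-09) and 1.76-fold lower with Yap1 shRNA (-0.81, SE 0.08, edgeR adjusted p = 7.5e-07).

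Of the genes for proteins of the actin filament, Tagln encodes transgelin, also called SM22-alpha, an actin cross-linking protein (NCBI gene 25123, chromosome 8, 50222895 to 50228369, minus strand). It had 1570, 1259 and 1410 CPM with Yap1 WT, 1198, 1365 and 1291 CPM with Yap1 shRNA, and 2361, 2541 and 2543 CPM with GFP. The Yap1 groups overlapped each other and not GFP. Its fall was 1.76-fold with Yap1 WT (log2 fold change -0.81, SE 0.08, edgeR adjusted p = 1.38e-06) and 1.93-fold with Yap1 shRNA (-0.95, SE 0.08, edgeR adjusted p = 1.28e-07).

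Cnn1 encodes calponin 1, which binds actin and inhibits the ATPase of smooth muscle myosin (NCBI gene 65204, chromosome 8, 23113083 to 23124134, plus strand). It had 244.0, 180.4 and 236.3 CPM with Yap1 WT, 86.38, 90.85 and 97.33 CPM with Yap1 shRNA, and 323.1, 329.0 and 352.7 CPM with GFP. The Yap1 WT libraries stood between the other groups, far above the Yap1 shRNA libraries. Cnn1 was 1.52-fold lower than GFP with Yap1 WT (log2 fold change -0.6, SE 0.09, edgeR adjusted p = 8.67e-05) and 3.66-fold lower with Yap1 shRNA (-1.87, SE 0.1, edgeR adjusted p = 1.83e-09).

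Smtn encodes smoothelin, a protein of the contractile stress fibres of smooth muscle (NCBI gene 289734, chromosome 14, 83755141 to 83776871, minus strand). It had 82.11, 73.81 and 78.4 CPM with Yap1 WT, 57.8, 68.26 and 60.49 CPM with Yap1 shRNA, and 130.6, 126.4 and 133.6 CPM with GFP. All 3 groups were apart, with Yap1 shRNA lowest. Smtn was 1.67-fold lower than GFP with Yap1 WT (log2 fold change -0.74, SE 0.06, edgeR adjusted p = 4.5e-07) and 2.09-fold lower with Yap1 shRNA (-1.07, SE 0.07, edgeR adjusted p = 8.89e-09).

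Lmod1, leiomodin 1, nucleates actin filaments in smooth muscle (NCBI gene 304816, chromosome 13, 52147099 to 52189835, plus strand). It had 22.33, 16.66 and 20.24 CPM with Yap1 WT, 30.18, 30.34 and 26.38 CPM with Yap1 shRNA, and 63.24, 61.8 and 65.74 CPM with GFP. Like Myh11, it was lowest with Yap1 WT, and no library of the Yap1 groups overlapped. Its fall of 3.22-fold with Yap1 WT was the deepest of the 10 in that comparison (log2 fold change -1.69, SE 0.09, edgeR adjusted p = 7.07e-09), and with Yap1 shRNA it was 2.19-fold (-1.13, SE 0.09, edgeR adjusted p = 1.33e-07).

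Des encodes desmin, the intermediate filament protein of cardiac, skeletal and smooth muscle (NCBI gene 64362, chromosome 9, 82556574 to 82564288, plus strand). It had 2051, 1765 and 2021 CPM with Yap1 WT, 1046, 1161 and 1116 CPM with Yap1 shRNA, and 2337, 2328 and 2490 CPM with GFP. Yap1 WT came near GFP, whereas the Yap1 shRNA libraries were apart from both. Des was 1.23-fold lower with Yap1 WT (log2 fold change -0.29, SE 0.07, edgeR adjusted p = 0.00195) and 2.15-fold lower with Yap1 shRNA (-1.11, SE 0.07, edgeR adjusted p = 6.68e-09). The smaller of these differences did not hold on the deposited TPM, where the log2 fold change with Yap1 WT was -0.13 on log2(TPM + 1) (limma adjusted p = 0.0801, in a range of 0.000151 to 0.0801 over all alternatives).

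**Figure D3:**
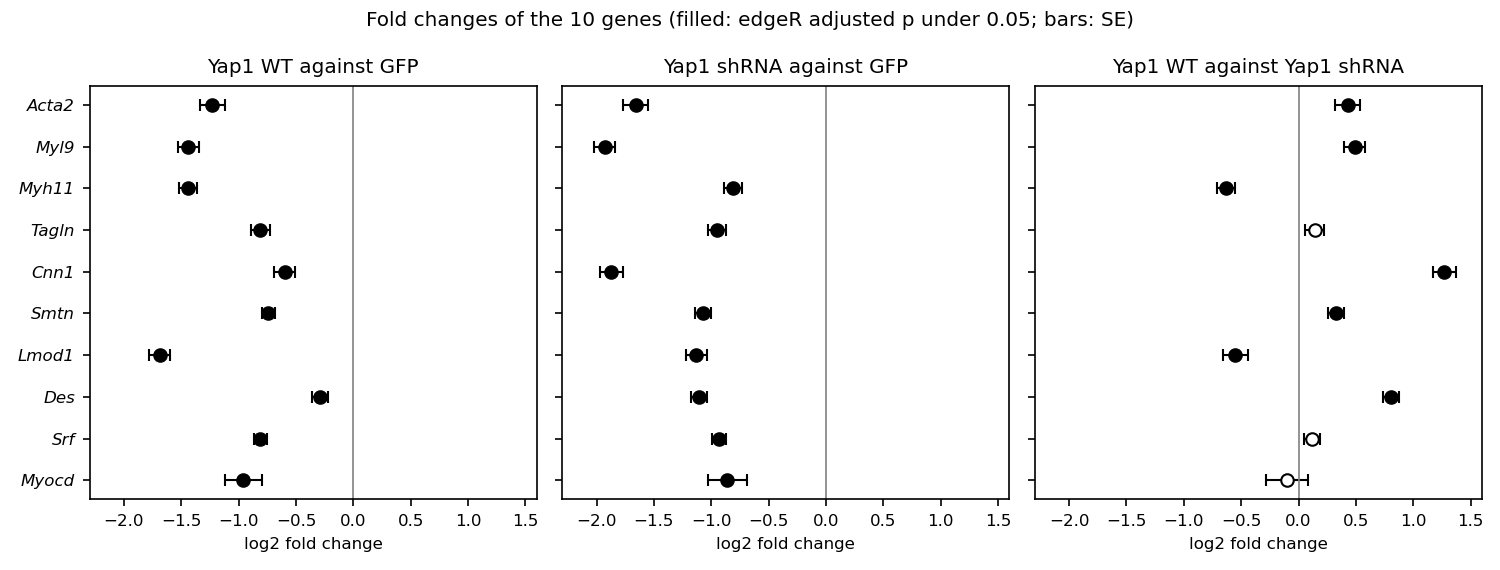
Log2 fold changes of the 10 genes from edgeR in Yap1 WT against GFP, Yap1 shRNA against GFP and Yap1 WT against Yap1 shRNA (panels), with SE as bars and filled points where the adjusted p is under 0.05. All points against GFP lie below 0 and are filled, and in the third panel Cnn1 lies farthest to the right at 1.27, Myh11 farthest to the left at -0.63, and Tagln, Srf and Myocd are open.

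In the direct comparison of Yap1 WT with Yap1 shRNA, the 10 genes were called in both directions, as genes in general were. Cnn1, Des, Myl9, Acta2 and Smtn were higher with Yap1 WT, where 31.2% of all genes were called higher, and Myh11 and Lmod1 were lower, where 31.3% of all genes were called lower. Cnn1 had the largest difference, at 2.41-fold (log2 fold change 1.27, SE 0.1, edgeR adjusted p = 2.77e-07), followed by Des at 1.76-fold (0.81, SE 0.07, edgeR adjusted p = 4.1e-07). Myl9 differed by 0.49 on the log2 scale (SE 0.09, edgeR adjusted p = 0.000439), Acta2 by 0.43 (SE 0.11, edgeR adjusted p = 0.00421) and Smtn by 0.33 (SE 0.07, edgeR adjusted p = 0.00115). All 5 were higher in each of the 3 Yap1 WT libraries than in any Yap1 shRNA library, as were 33.6% of all genes, and 32.6% were lower in this way. Myh11 was 1.54-fold lower with Yap1 WT than with Yap1 shRNA (log2 fold change -0.63, SE 0.08, edgeR adjusted p = 3.18e-05), and Lmod1 was 1.47-fold lower (-0.55, SE 0.11, edgeR adjusted p = 0.00053).

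Tagln, Srf and Myocd were not called in this comparison, and their groups overlapped. The 95% interval of the log2 difference was -0.02 to 0.29 for Tagln, -0.01 to 0.25 for Srf and -0.45 to 0.25 for Myocd. The interval of Myocd is the widest and leaves room for a difference in either direction. The calls moved with 1 library. Without Yap1 WT replicate 2, the library with the most Yap1, Tagln was 0.22 higher with Yap1 WT than with Yap1 shRNA on the log2 scale (edgeR adjusted p = 0.0164, in a range of 0.00783 to 0.441 over all alternatives) and Srf 0.2 higher (edgeR adjusted p = 0.0079, in a range of 0.00353 to 0.482). Myocd was 0.37 lower on the log2 scale without Yap1 WT replicate 1 (log2 fold change -0.37, edgeR adjusted p = 0.0205, in a range of 0.0205 to 0.954).

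The Yap1 WT libraries took the same order for every gene. All 10 were highest in Yap1 WT replicate 1 and lowest in replicate 2, and Yap1 itself was lowest in replicate 1 and highest in replicate 2. This order held for 24.2% of the 13708 genes tested, for 45.6% of the 4360 genes called lower with Yap1 WT than with GFP, and for 8.18% of the 4391 called higher. The summed cardiomyocyte markers took it too, with 5679, 3806 and 4859 CPM in Yap1 WT replicates 1, 2 and 3. So did the summed fibroblast markers, with 17030, 12600 and 14690 CPM, and the pericyte markers, with 759, 570.2 and 653 CPM. The summed endothelial, macrophage and epicardial markers did not. The 3 libraries do not allow a test across them. The order was examined after its values had been seen. Variation was smallest with GFP, where the coefficient of variation of the 10 genes had a median of 4.01%, against 13.5% with Yap1 WT and 6.27% with Yap1 shRNA.

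TPM values, which are scaled by transcript length, allow levels of different genes to be set side by side. With Yap1 WT, Acta2 stood at 2609 ± 505 TPM (SD, n = 3) and Tagln at 2443 ± 280, which overlap, followed by Des at 1383 ± 111, Myl9 at 744 ± 118 and Cnn1 at 251.5 ± 39.6. Then came Srf at 38.12 ± 3.48 and Smtn at 35.01 ± 1.97, which overlap, Myh11 at 14.1 ± 1.84, and Myocd at 6.25 ± 1.76 with Lmod1 at 6.203 ± 0.922, which overlap. With Yap1 shRNA, Tagln was first at 2288 ± 75.2 TPM and Acta2 next at 1991 ± 108, with no overlap.

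The rest of the order with Yap1 shRNA was Des at 813.9 ± 15 TPM, Myl9 at 547.2 ± 7.59, Cnn1 at 107.9 ± 4.75, Srf at 36.48 ± 1.38, Smtn at 28.82 ± 1.75 and Myh11 at 22.56 ± 2.09. Lmod1 at 9.44 ± 0.891 TPM and Myocd at 7.82 ± 1.43 TPM came last and overlapped. In GFP libraries no neighbours overlapped. There the order was Acta2 at 5456 ± 158 TPM, Tagln at 3818 ± 92.2, Myl9 at 1801 ± 53.2, Des at 1513 ± 60.1, Cnn1 at 341 ± 14.4, Srf at 59.67 ± 1.45, Smtn at 52.29 ± 2.13, Myh11 at 34.2 ± 2.16, Lmod1 at 17.87 ± 0.711 and Myocd at 10.54 ± 0.668. Myl9 thus stood above Des with GFP and under it in both Yap1 groups. Together the 10 genes took 0.86%, 0.649% and 0.75% of all TPM in Yap1 WT libraries, 0.568%, 0.605% and 0.583% in Yap1 shRNA libraries, and 1.29%, 1.3% and 1.34% in GFP libraries.

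Acta2 is 1 of 6 actin genes, whose coding sequences are close to each other, so that reads may be split among them and each single level is uncertain to that extent. By TPM, Acta2 made up 22.6%, 20.7% and 21.8% of the 6 in Yap1 WT libraries, 26.2%, 27.4% and 26.3% in Yap1 shRNA libraries, and 20.6%, 20.5% and 20.4% in GFP libraries. Its share was thus higher with Yap1 shRNA although its level was lowest there. The cardiac actin Actc1 made up 36.6%, 26.4% and 34.2% with Yap1 WT, 5.34%, 6.67% and 6.47% with Yap1 shRNA, and 59.8%, 60.4% and 60.6% with GFP. Actc1 fell 4.58-fold with Yap1 WT (log2 fold change -2.19, SE 0.18, edgeR adjusted p = 3.64e-07) and 40.2-fold with Yap1 shRNA (-5.33, SE 0.21, edgeR adjusted p = 1.34e-10).

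The other actins moved less evenly. The skeletal actin Acta1 had a log2 fold change of -3.33 with Yap1 shRNA (SE 0.14, edgeR adjusted p = 2.3e-10) and of -0.35 with Yap1 WT (SE 0.12, edgeR adjusted p = 0.0244), a call that was lost with library size alone as the scaling (-0.21, edgeR adjusted p = 0.13). Actg2, the enteric smooth muscle actin, fell 2.06-fold with Yap1 WT (log2 fold change -1.04, SE 0.07, edgeR adjusted p = 7.5e-08), and with Yap1 shRNA its log2 fold change was -0.23 (SE 0.07, edgeR adjusted p = 0.0107). On log2(TPM + 1) the Yap1 shRNA value of Actg2 was -0.02 and not called. The cytoplasmic Actb had log2 fold changes of -0.07 with Yap1 WT and -0.16 with Yap1 shRNA, and Actg1 had 0.08 with Yap1 WT and 0.18 with Yap1 shRNA. The summed TPM of the 6 actins was 13800, 10230 and 11880 with Yap1 WT, 7193, 7684 and 7538 with Yap1 shRNA, and 26270, 26060 and 27660 with GFP.

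**Figure D4:**
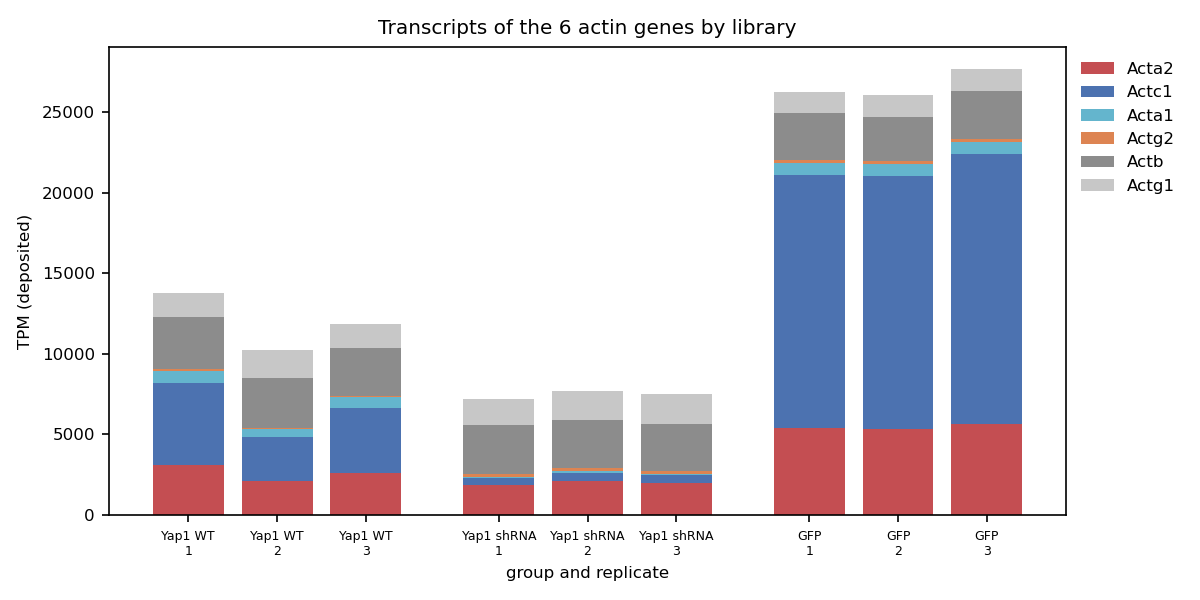
TPM of 6 actin genes in each library, stacked, for Yap1 WT, Yap1 shRNA and GFP. The cardiac Actc1 takes 59.8% to 60.6% of the stack with GFP and 5.34% to 6.67% with Yap1 shRNA, while Acta2 takes between 20.4% and 27.4% in every library.

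Of 22 paralogs of the 10 genes, 19 could be tested. With Yap1 WT 1 was called higher and 11 were called lower, with a median log2 fold change of -0.5. Of all genes, 32% were called higher and 31.8% lower in that comparison. The higher calls among the 19 numbered 3 with library size alone as the scaling and 4 on log2(TPM + 1), with 9 lower in both. With Yap1 shRNA 3 were higher and 13 lower, with a median of -0.6, against 39.2% and 39.1% of all genes. Besides the actins Actc1 and Acta1, the genes with the lowest p were Tmod1, a tropomodulin that caps filaments, and Myh10, a nonmuscle myosin heavy chain. Tmod1 had log2 fold changes of -1.89 with Yap1 WT (SE 0.09, edgeR adjusted p = 2.47e-09) and -1.61 with Yap1 shRNA (SE 0.09, edgeR adjusted p = 3.78e-09). Myh10 had -1.37 with Yap1 WT (SE 0.09, edgeR adjusted p = 5.83e-08) and -1.91 with Yap1 shRNA (SE 0.1, edgeR adjusted p = 1.07e-09). Relatives of Cnn1 and Tagln on the list include Cnn2, Cnn3 and Tagln2. Cnn3 averaged 285.1 CPM with Yap1 WT and 395.1 CPM with Yap1 shRNA, against 320.8 CPM with GFP. Cnn2 had a log2 fold change of -0.04 with Yap1 WT and -0.6 with Yap1 shRNA, and Tagln2 had -0.02 with Yap1 WT and -0.16 with Yap1 shRNA. The difference between these and the values of Cnn1 and Tagln was not tested.

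Of 20 other genes of the smooth muscle contractile programme, 18 fell with Yap1 WT and none was called higher, with a median log2 fold change of -1.01. Of all genes tested, 31.8% were called lower and 32% higher there. With library size alone as the scaling, and on log2(TPM + 1), 1 of the 20 was called higher with Yap1 WT. With Yap1 shRNA 16 fell and 2 rose, with a median of -0.92, against 39.1% and 39.2% of all genes. The lower calls with Yap1 shRNA numbered 18 with upper quartile scaling and 15 on log2(TPM + 1). Tpm1, an alpha-tropomyosin shared with heart muscle, had -1.15 with Yap1 WT (SE 0.09, edgeR adjusted p = 1.25e-07) and -2.34 with Yap1 shRNA (SE 0.09, edgeR adjusted p = 9.25e-11). Pdlim3, an actinin-associated LIM protein, had -1.4 with Yap1 WT (SE 0.12, edgeR adjusted p = 3.68e-07) and -3.3 with Yap1 shRNA (SE 0.14, edgeR adjusted p = 1.98e-10). Myl6, the essential light chain of smooth muscle and nonmuscle myosin, had -0.77 with Yap1 WT and -1.15 with Yap1 shRNA. Fhl1, a LIM protein of muscle, had -0.82 with Yap1 WT and -1.7 with Yap1 shRNA, and all 4 values of Myl6 and Fhl1 were called lower.

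Smooth muscle genes outside the rule for named genes were looked at after their values were seen. Mylk, the myosin light chain kinase, had 31.74 ± 4.56 CPM with Yap1 WT and 63.3 ± 5.87 CPM with Yap1 shRNA, against 67 ± 2.52 CPM with GFP (SD, n = 3 each). It was called lower with Yap1 WT (log2 fold change -1.08, SE 0.09, edgeR adjusted p = 5.11e-07), and with Yap1 shRNA it had -0.08 (edgeR adjusted p = 0.433), or -0.22 and called lower with upper quartile scaling (edgeR adjusted p = 0.0418). Kcnmb1, a subunit of the large-conductance potassium channel of smooth muscle, had 15.17 ± 1.16 CPM with Yap1 WT and 39.6 ± 3.22 CPM with Yap1 shRNA, against 23.64 ± 1.04 CPM with GFP. It was lower with Yap1 WT (-0.64, SE 0.09, edgeR adjusted p = 2.86e-05) and higher with Yap1 shRNA (0.74, SE 0.08, edgeR adjusted p = 2.62e-06). In the direct comparison both were lower with Yap1 WT than with Yap1 shRNA, as Myh11 and Lmod1 were. The log2 fold changes were -0.99 for Mylk (edgeR adjusted p = 2.01e-06) and -1.38 for Kcnmb1 (edgeR adjusted p = 4.5e-08). The list of 20 did not share this direction. In that comparison 9 of the 20 were called higher and 8 lower, with a median of 0.16, against 31.2% and 31.3% of all genes.

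Genes known as cofactors or competitors of SRF were called in both directions, as genes in general were. Of 16 such genes, 4 were called higher and 9 lower with Yap1 WT, with a median log2 fold change of -0.27. With Yap1 shRNA 7 were higher and 8 lower, with a median of -0.02. Of all genes tested, 32% were called higher and 31.8% lower with Yap1 WT, and 39.2% higher and 39.1% lower with Yap1 shRNA. Klf5, a zinc finger factor of proliferating smooth muscle, rose 3.66-fold with Yap1 WT (log2 fold change 1.87, SE 0.1, edgeR adjusted p = 4.53e-09) and 11.3-fold with Yap1 shRNA (3.5, SE 0.09, edgeR adjusted p = 1.31e-11). Klf4, a repressor of smooth muscle genes, had 0.16 with Yap1 WT (SE 0.05, edgeR adjusted p = 0.0227) and 1.48 with Yap1 shRNA (SE 0.05, edgeR adjusted p = 6.61e-11). Csrp2, a LIM protein that bridges SRF and GATA factors, fell 4.13-fold with Yap1 WT (-2.04, SE 0.11, edgeR adjusted p = 6.64e-09) and 10.1-fold with Yap1 shRNA (-3.34, SE 0.14, edgeR adjusted p = 2.07e-10). Fhl2, a LIM protein that binds SRF, had -1.15 with Yap1 WT and -1.03 with Yap1 shRNA, both called lower.

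The relatives of Myocd were not called lower. Mrtfa, which encodes MRTF-A, had a log2 fold change of 0.16 with Yap1 WT (SE 0.07, edgeR adjusted p = 0.0709) and of 0.71 with Yap1 shRNA (SE 0.08, edgeR adjusted p = 1.8e-06). The value of Mrtfa with Yap1 WT was called higher with library size alone as the scaling (0.3, edgeR adjusted p = 0.0034), with RLE scaling (0.19, edgeR adjusted p = 0.0443) and on log2(TPM + 1) (0.32, limma adjusted p = 0.00984), and was not called with upper quartile scaling. Mrtfb, which encodes MRTF-B, had 0.09 with Yap1 WT (SE 0.35, edgeR adjusted p = 0.835) and 0.48 with Yap1 shRNA (SE 0.38, edgeR adjusted p = 0.262). It stood at 1.235 ± 0.363 CPM with Yap1 WT and 1.623 ± 0.829 CPM with Yap1 shRNA, against 1.162 ± 0.256 CPM with GFP (SD, n = 3 each), the groups overlapped, and no direction can be given.

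Target groups of SRF outside smooth muscle did not move as one. Of 10 cardiac targets, all 10 fell in both comparisons, with a median log2 fold change of -1.61 with Yap1 WT and -3.19 with Yap1 shRNA. Of all genes tested, 31.8% were called lower with Yap1 WT and 39.1% with Yap1 shRNA. Tnnc1, cardiac troponin C, fell 3.3-fold with Yap1 WT and 12.6-fold with Yap1 shRNA. Myh6, the alpha cardiac myosin heavy chain, fell 14.6-fold with Yap1 WT and 47.1-fold with Yap1 shRNA, and Nppa, atrial natriuretic peptide, 1.55-fold with Yap1 WT and 8.28-fold with Yap1 shRNA. Atp2a2, the calcium pump of the sarcoplasmic reticulum, fell 2.97-fold with Yap1 WT and 3.54-fold with Yap1 shRNA. With library size alone as the scaling, 8 of the 10 cardiac targets were called with Yap1 WT.

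Of 10 immediate early targets, 5 were called higher and 3 lower with Yap1 WT, against 32% and 31.8% of all genes. With Yap1 shRNA 7 were higher and 1 lower, against 39.2% and 39.1% of all genes. The medians were 0.28 with Yap1 WT and 0.59 with Yap1 shRNA. Fos, a subunit of AP-1, had 15.81 ± 0.608 CPM with Yap1 WT and 48.76 ± 1.85 CPM with Yap1 shRNA, against 8.418 ± 0.388 CPM with GFP. That is a log2 fold change of 0.91 with Yap1 WT (SE 0.08, edgeR adjusted p = 9.05e-07) and of 2.53 with Yap1 shRNA (SE 0.08, edgeR adjusted p = 2.63e-11). Junb, a partner of Fos, rose 2.25-fold with Yap1 WT and 1.67-fold with Yap1 shRNA, and Mcl1, an antiapoptotic BCL2 relative, rose 1.28-fold with Yap1 WT and 2.67-fold with Yap1 shRNA. Fosb was lower with Yap1 WT (-0.89, SE 0.23, edgeR adjusted p = 0.00477) and higher with Yap1 shRNA (2.23, SE 0.19, edgeR adjusted p = 1.83e-07).

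Of 13 cytoskeletal targets of MRTF and SRF, 1 was higher and 7 were lower with Yap1 WT, against 32% and 31.8% of all genes. With Yap1 shRNA 4 were higher and 6 lower, against 39.2% and 39.1% of all genes. The medians of the 13 were -0.2 with Yap1 WT and -0.07 with Yap1 shRNA. On log2(TPM + 1) the counts became 4 higher and 5 lower with Yap1 WT and 6 higher and 4 lower with Yap1 shRNA, and with library size alone they were 3 higher and 6 lower with Yap1 WT, so no direction can be given to this list. Vcl, the adhesion protein vinculin, had -1.04 with Yap1 WT and -1.07 with Yap1 shRNA, and Flna, filamin A, had -0.76 with Yap1 WT and -0.92 with Yap1 shRNA. Tgfb1i1, the LIM protein HIC-5, had -0.87 with Yap1 WT and -1.22 with Yap1 shRNA, and all 6 values were called lower. Actn1, the nonmuscle alpha-actinin 1, was called higher, at 0.17 with Yap1 WT and 0.55 with Yap1 shRNA.

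Of 10 intermediate filament genes and partners of desmin, 2 rose and 6 fell with Yap1 WT, against 32% and 31.8% of all genes. With Yap1 shRNA 2 rose and 7 fell, against 39.2% and 39.1% of all genes. The medians of the 10 were -0.54 with Yap1 WT and -0.76 with Yap1 shRNA. Vim, vimentin of mesenchymal cells, had 1406 ± 87.8 CPM with Yap1 WT and 987.1 ± 67.9 CPM with Yap1 shRNA, against 2339 ± 89.4 CPM with GFP. Synm, synemin, which assembles with desmin, had -1.52 with Yap1 WT (SE 0.09, edgeR adjusted p = 2.48e-08) and -1.03 with Yap1 shRNA (SE 0.1, edgeR adjusted p = 5.55e-07), so that it was lower with Yap1 WT than with Yap1 shRNA (-0.49, edgeR adjusted p = 0.00159), unlike Des. Krt18, a keratin, fell 1.66-fold with Yap1 WT and 4.72-fold with Yap1 shRNA. Nes, nestin, rose instead, with log2 fold changes of 0.64 with Yap1 WT (SE 0.08, edgeR adjusted p = 1.07e-05) and 1.14 with Yap1 shRNA (SE 0.08, edgeR adjusted p = 1.96e-08).

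**Figure D5:**
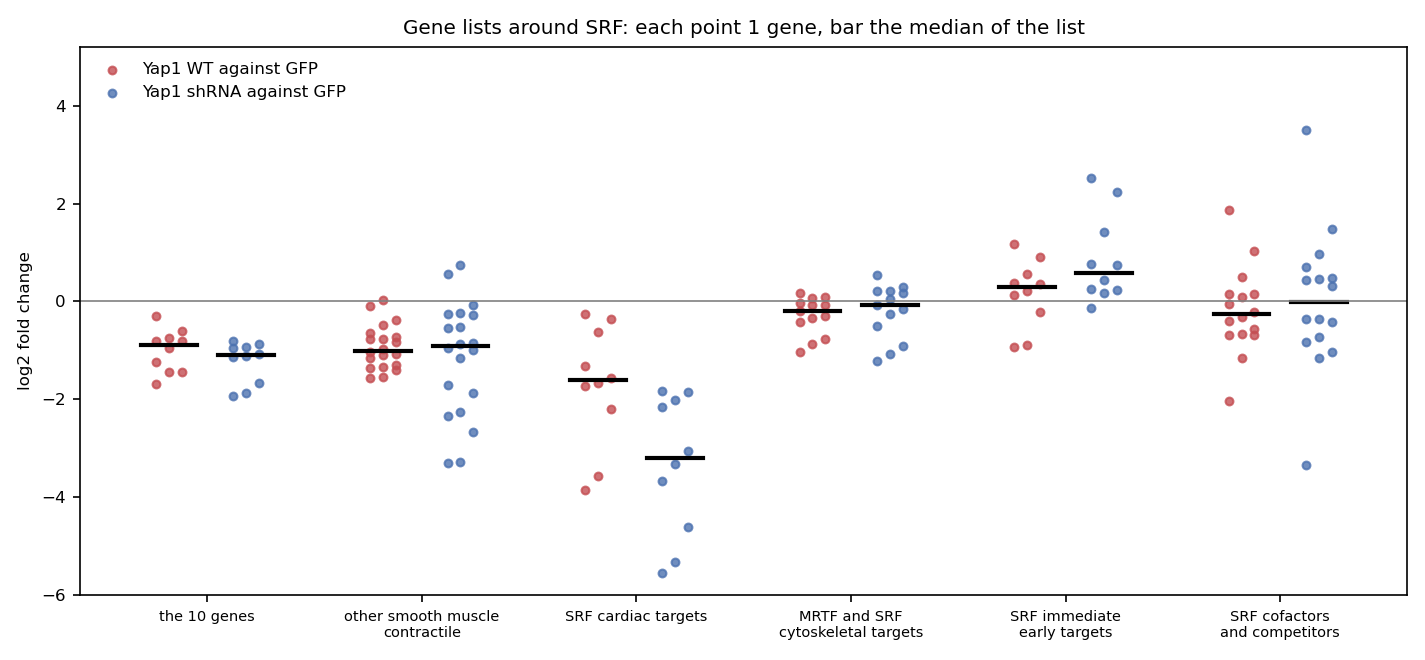
Log2 fold change of each gene (points) and the median of each list (bars) for the 10 genes and 5 other lists around SRF, in Yap1 WT against GFP and Yap1 shRNA against GFP. The 10 genes and the cardiac targets lie wholly below 0, with medians of -0.89 and -1.61 with Yap1 WT, whereas the immediate early targets have medians of 0.28 with Yap1 WT and 0.59 with Yap1 shRNA.

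Markers of other cells that express the 10 genes changed as well, and some of them rose. Among all genes tested, 32% were called higher and 31.8% lower with Yap1 WT. The shares with Yap1 shRNA were 39.2% higher and 39.1% lower. All 8 cardiomyocyte markers fell in both comparisons, with a median log2 fold change of -1.79 with Yap1 WT and -3.23 with Yap1 shRNA, and Myh6 and Tnnt2 had the highest mean CPM over all 9 libraries. The first markers named for each cell type were chosen by this pooled mean, and for cardiomyocyte, endothelial, macrophage and epicardial markers the order differed between groups. Myh6 averaged 441.3 CPM with Yap1 WT and 136.5 CPM with Yap1 shRNA, against 6430 CPM with GFP, and Tnnt2 averaged 1568 CPM with Yap1 WT and 503.7 CPM with Yap1 shRNA, against 4283 CPM with GFP. Of 10 fibroblast markers, 3 rose and 6 fell with Yap1 WT and 1 rose and 9 fell with Yap1 shRNA, with medians of -0.31 with Yap1 WT and -1.19 with Yap1 shRNA, with Col1a1 and Col3a1 at the highest CPM in every group. Dcn rose in both, with 100.7 CPM with Yap1 WT and 94.66 CPM with Yap1 shRNA, against 27.12 CPM with GFP. Lum had 38.82, 11.23 and 19.23 CPM with Yap1 WT, Yap1 shRNA and GFP, and Pdgfra had 28.79, 4.559 and 22.47 CPM. Both rose with Yap1 WT and fell with Yap1 shRNA, and the Yap1 WT and GFP libraries of Pdgfra overlapped. Of the 6 pericyte markers, among them Pdgfrb and Cspg4, 5 could be tested. With Yap1 WT 1 of these rose and 3 fell, and with Yap1 shRNA 1 rose and 4 fell. Kcnj8 was the marker that rose, with 2.567 CPM with Yap1 WT and 7.986 CPM with Yap1 shRNA, against 0.707 CPM with GFP. The median of the 5 tested markers was -0.7 with Yap1 WT and -0.77 with Yap1 shRNA. The 6 summed to 570.2 to 759 CPM with Yap1 WT and 542.3 to 627.6 CPM with Yap1 shRNA, against 959 to 1068 CPM with GFP. The part of these cell types in the fall of the 10 genes was not tested.

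Marker RNA of the remaining cell types was low. Endothelial markers, among them Kdr and Esam, summed to 60.98 to 66.65 CPM with Yap1 WT, 71.75 to 76 CPM with Yap1 shRNA and 46.04 to 47.22 CPM with GFP, and Emcn was at 0 in 1 Yap1 WT library. Macrophage markers, among them Cd68 and Fcer1g, summed to 50.94 to 54.93 CPM with Yap1 WT, 24.43 to 34.72 CPM with Yap1 shRNA and 38.07 to 41.29 CPM with GFP, with C1qb at 0 in all 3 Yap1 shRNA libraries and C1qa in 2 of them. Epicardial markers, among them Tbx18 and Upk1b, summed to 73.93 to 78.74 CPM with Yap1 WT, 78.55 to 88.15 CPM with Yap1 shRNA and 72.67 to 74.58 CPM with GFP. Single epicardial markers moved in opposite directions. Of the 6, 2 were called higher and 3 lower with Yap1 WT, and 3 higher and 2 lower with Yap1 shRNA. Tbx18 and Upk1b averaged more in both Yap1 groups than with GFP. Upk3b averaged 3.909 CPM with Yap1 WT and 0.05322 CPM with Yap1 shRNA, against 13.29 CPM with GFP, and was at 0 in 2 Yap1 shRNA libraries. Msln averaged 4.637 CPM with Yap1 WT and 0.8181 CPM with Yap1 shRNA, against 17.34 CPM with GFP.

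The genes whose profile over the 9 libraries was most like that of Acta2 or Srf were found by the Euclidean distance between log2 CPM values, each gene centred on its own mean, among 10931 other genes averaging 5 CPM or more. Nearest to Acta2 were Dmd at 0.196, Anxa6 at 0.201 and Podn at 0.226, where the median gene lay at 2.25. Nearest to Srf were Ndufs1 at 0.114, Vldlr at 0.116 and Nudt3 at 0.142, where the median gene lay at 1.46. Among the 10 genes, the nearest to Acta2 was Myl9, in place 39 at a distance of 0.381. Tagln and Srf lay closest of the 10 to each other, at 0.163, and Myh11 was the third nearest of all genes to Lmod1, at 0.435. These distances are descriptions over libraries that share 3 groups.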

How the data were processed

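Messenger RNA was sequenced on a BGISEQ-500 after oligo(dT) enrichment, per the labels' protocols, which do not state whether the library kept strand. The submitters' processing notes name HISAT2, Bowtie2, RSEM 1.3.1, DESeq2 1.4.5 and the build rn6. Expected counts for each gene were deposited without normalization. The deposited TPM values were scaled by length and library by the authors. The file headers also name log2 fold changes with p-values and q-values deposited by the authors. These log2 values differed from those computed here by at most 0.01 for the 10 genes.

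Expected counts were rounded and tested with edgeR 4.0.16 in R 4.3.3 (quasi-likelihood F test, TMM, filterByExpr, group as the only term, all 9 libraries, two-sided, Benjamini-Hochberg over 13708 genes, called under 0.05). With 3 libraries a group, "no overlap" means that all 3 of one lie on one side of all 3 of the other. Folds are fitted, and 95% intervals are 1.96 SE either way. The 10 genes and the lists were chosen with earlier results of these data known. Named from each list were up to 4 genes with the lowest p in either comparison with GFP, and for cell types the 2 with the highest mean CPM over all 9 libraries. Named outside this rule were relatives of the 10 genes (Actg2, Actb, Actg1, Cnn2, Cnn3, Tagln2, Mrtfa and Mrtfb), Mylk, Kcnmb1, Kcnj8, Dcn, Lum, Pdgfra, Msln and markers at 0. The CArG form with 1 G or C and the MCAT search were added after seeing the data. No replicate pair agreed within sampling noise. Alternatives were other scalings, DESeq2 1.42.0, limma 3.58.1 (voom, and log2 TPM with a pseudocount of 1 or 0.1), other filters, the 6 compared libraries, a replicate block, thinning and each library left out. Methods were tested on simulated data. Sequences are from RefSeq (GRCr8). Reads carry no molecular identifiers, and paralogs were counted as deposited. 1 list of genes is not reported here.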

Additional observations from a re-analysis of the deposited data

How the results depend on the processing

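The number of the 10 genes called stayed at 9 to 10 in Yap1 WT against GFP, 9 to 10 in Yap1 shRNA against GFP and 7 to 9 in Yap1 WT against Yap1 shRNA over all alternatives. Of 540 values of single genes under an alternative, 526 kept their direction and their side of the threshold. Those of Des and Myocd on TPM, and those without 1 library, stand beside the results. On log2(TPM + 0.1), Des in Yap1 WT against GFP had -0.13 (limma adjusted p = 0.0795). Myocd in Yap1 WT against Yap1 shRNA, not called at -0.1, lay between -0.37 and 0.07 with each library left out, and turned to 0.01 with library size alone, to 0.04 with upper quartile scaling, to 0.04 without Yap1 shRNA replicate 1 and to 0.07 without Yap1 WT replicate 2. Tagln and Srf were called in that comparison with library size alone (0.25 and 0.24) and upper quartile scaling (0.28 and 0.26). With these scalings the median gene lay at 0.152 and 0.176 there, against 0.037 with TMM. In Yap1 WT against GFP, library size alone moved the median gene to 0.138 and TPM to 0.136, and the share of higher calls was 50.2%, 62.8% and 65.2% with TMM, library size and log2(TPM + 1). The cause of each such change was not tested. Lmod1 and Myocd had the fewest reads of the 10 genes, and which values depth limits most was not tested.

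No strong pairing by replicate number was seen. The 9 same-numbered pairs had correlations of -0.031 to 0.094 between deviations from the group means, none over 0.1. Pairs with unlike numbers had -0.112 to 0.056, and a weak pairing was not tested for. With the replicate block, 10, 10 and 7 of the 10 genes were called in the 3 comparisons, as without it, and 8812, 10752 and 8590 genes against 8751, 10733 and 8562.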
